A study of Mus musculus with 59 samples.

Results

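Store-operated calcium entry was described here through 9 genes: the channel genes Orai1, Orai2 and Orai3, the store sensors Stim1 and Stim2, the inactivation factor Saraf, and the genes of the store's release channels, Itpr1, Itpr2 and Itpr3. They were taken by name from a table of 51456 genes, and all 9 were among the 16839 genes with a mean normalized count of at least 10 that entered the tests. The set was assembled with the genotype difference of Orai2 already known, so genotype differences of these genes are given as descriptions. How many of them the fit over all genes called is printed below. It is printed again where the dependence on processing is described, and no test is read from it.

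Prefrontal cortex was dissected from C57BL/6J mice at postnatal day 25, and its messenger RNA was sequenced in 59 libraries. Chd8, the gene that carries the S62X allele, encodes a chromatin remodeller. The pups of 2 genotypes, heterozygous (HT) for Chd8-S62X or wild type (WT), were reached by vehicle, fluoxetine (a blocker of serotonin reuptake) or lithium (an inhibitor of inositol monophosphatase and glycogen synthase kinase 3) in the milk of their dams from day 3 to day 24. Both sexes were sampled, which gave 12 groups of genotype, treatment and sex with 5 libraries each, or 4 for HT females on fluoxetine. All groups share the strain, the age and the route of dosing, and vehicle libraries of each genotype are the reference for the drugs.

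Depletion of calcium from the endoplasmic reticulum is the signal for this pathway. Inositol trisphosphate (IP3) opens IP3 receptors and empties the store, STIM proteins sense the fall in luminal calcium and move to contacts with the plasma membrane, and there they open ORAI channels, which let calcium in so that the store can be refilled. In neurons the pathway works beside voltage-gated and glutamate-gated calcium channels and is known for its part in store refilling and in spine and synapse maintenance.

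Levels are normalized counts, that is, estimated read counts that the authors scaled library by library. They summed to 30.3 to 33.7 M per library. Chd8, read first as a check of the labels, ranged from 5115 to 6626 over the 29 libraries with the HT label and from 2828 to 4229 over the 30 with the WT label. The ranges did not overlap in any of the 6 strata of treatment and sex. The higher level with the HT label is opposite to a loss of transcript, though messenger RNA levels do not measure the function of the protein. Libraries are therefore called HT-labelled and WT-labelled throughout, and each direction below rests on those labels. The labels name neither the animal nor the litter of a library, and p-values then measure only how these libraries vary.

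The promoters of the 3 channel genes are shown because these paralogs, which encode channel subunits, differed in level and in their genotype difference. Orai2 had been chosen for its genotype difference. Each line holds the 190 bases that end 61 bases before the RefSeq start of the gene, on the strand of the gene, 5′ to 3′, from RefSeq on GRCm38.p6. Capitals mark every match, on either strand, to 6 motifs: the GC box GGGCGG, the CCAAT box, the core of the cyclic AMP response element TGACG, the core bound by NFAT (the transcription factor that calcium entry activates) GGAAAA, the TATA box TATAAA and the E box written as CACGTG. The matches in these 3 windows do not overlap.
Orai1: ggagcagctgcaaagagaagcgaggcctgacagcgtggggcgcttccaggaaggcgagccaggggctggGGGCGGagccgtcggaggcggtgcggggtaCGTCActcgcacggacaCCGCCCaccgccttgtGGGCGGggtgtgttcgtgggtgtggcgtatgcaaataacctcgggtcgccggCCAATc
Orai2: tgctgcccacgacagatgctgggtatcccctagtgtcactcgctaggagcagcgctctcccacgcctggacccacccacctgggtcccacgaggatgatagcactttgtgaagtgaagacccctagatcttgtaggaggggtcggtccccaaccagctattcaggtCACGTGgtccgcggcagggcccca
Orai3: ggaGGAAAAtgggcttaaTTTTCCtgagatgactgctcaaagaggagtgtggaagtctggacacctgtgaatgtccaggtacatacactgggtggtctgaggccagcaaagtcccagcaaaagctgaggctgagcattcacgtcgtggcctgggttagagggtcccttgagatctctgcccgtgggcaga

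The Orai1 window (chr5:123014824-123015013, plus strand) had a GC content of 68.9% and 20 CpG dinucleotides. It held 3 GC boxes, 1 CCAAT and 1 TGACG. The Orai2 window (chr5:136170717-136170906, minus strand) had a GC content of 61.6% and 9 CpG dinucleotides, and its only match was 1 E box. The Orai3 window (chr7:127769565-127769754, plus strand) had a GC content of 53.7% and 3 CpG dinucleotides, and its only matches were 2 NFAT cores. Among 32851 promoter windows of the same length, the median GC content was 51.6% and the median CpG count was 4, so the Orai1 window stood far above the median of both and the Orai3 window near it. A GC box was present in 22.8% of all windows, CCAAT in 26.7%, TGACG in 11.7%, GGAAAA in 16.4%, TATAAA in 8.73% and CACGTG in 4.03%. Of the 7 genes in the promoter table, Orai1, Stim1, Stim2, Itpr2 and Itpr3 held at least 1 GC box in this window. Orai2 and Itpr3 held the E box, and none held TATAAA. The windows end 61 bases before the start, so a TATA box nearer to it would not be seen. The E box was added to the search after the sequences had been read. A match describes letters in the window and no binding was measured.

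Per kilobase of annotated exon sequence, the order of the genes was led by Saraf, with a mean of 1975 normalized counts per kb (SD 111, n = 59). Itpr1 followed with 808 per kb, then Orai2 with 416, Stim2 with 294, Stim1 with 253, Orai3 with 170, Itpr2 with 66.0, Orai1 with 61.3 and Itpr3 with 25.8. Orai2 was thus the most abundant channel subunit of this cortex per length, and Itpr1 the most abundant release channel. In 4 pairs of neighbours ranges over the libraries overlapped. Orai2 was nonetheless above Stim2 in 59 of 59 libraries, Stim2 above Stim1 in 54, Orai1 above Itpr3 in 58 and Itpr2 above Orai1 in 41. By the spread of the libraries, the order of Itpr2 and Orai1 was the least settled. The order also depends on the length used, which joins all annotated exons and not those of the transcripts expressed. Before division by length, Stim1 (mean 2624 normalized counts) stood above Stim2 (1510).

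The genes differed in how steady they were. The coefficient of variation of the normalized counts over the 59 libraries was 3.73% for Stim1 and 5.61% for Saraf. It lay between 10.8% and 14.8% for Orai1, Orai2, Orai3, Stim2, Itpr1 and Itpr2, and reached 37.0% for Itpr3.

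**Figure D1:**
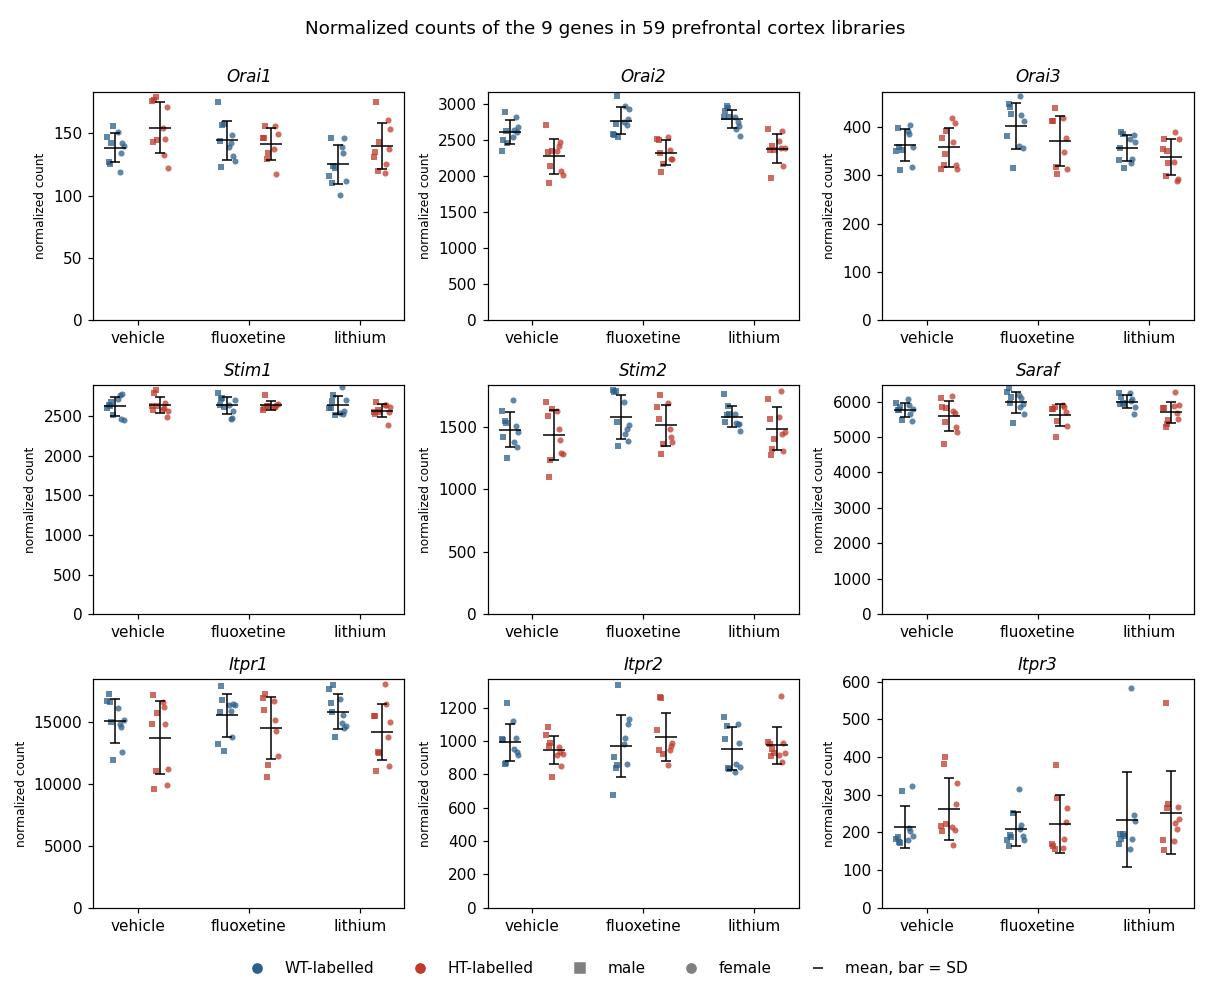
Normalized counts (y axes, from 0) of the 9 genes in the 59 libraries, by treatment (x axis) and genotype label (colour), with sex as the marker shape; horizontal lines are means and bars are SD over the libraries of a genotype and treatment. Orai2 is lower in HT-labelled libraries under each treatment, Stim1 is nearly level throughout, and single libraries of Itpr3 reach 544 and 583.

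Among the channel genes, Orai2 (ENSMUSG00000039747, GRCm38 chr5:136147459-136170713, minus strand) was lower in HT-labelled libraries under vehicle and under both drugs. ORAI2 can join ORAI1 in mixed channels and is expressed in the brain. In males on vehicle, the HT-labelled libraries had 1902, 2137, 2328, 2350 and 2704 normalized counts and the WT-labelled ones 2342, 2462, 2496, 2632 and 2887. These groups overlapped, because the HT-labelled library at 2704 lay above 4 of the 5 WT-labelled ones. In females on vehicle, the HT-labelled values were 2021, 2065, 2346, 2418 and 2476, all below the WT-labelled values of 2535, 2606, 2643, 2686 and 2813.

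On fluoxetine, HT-labelled males had 2052, 2161, 2315, 2505 and 2517 normalized counts of Orai2 and WT-labelled males 2536, 2572, 2586, 2722 and 3110. The groups did not overlap, though only by the short step from 2517 to 2536. HT-labelled females on fluoxetine had 2230, 2234, 2363 and 2536, and WT-labelled females 2712, 2753, 2798, 2926 and 2972, again without overlap. On lithium, HT-labelled males had 1975, 2361, 2363, 2415 and 2654 and WT-labelled males 2814, 2820, 2903, 2944 and 2966. The groups did not overlap, and this stratum had the largest mean log2 difference of Orai2. HT-labelled females on lithium had 2137, 2385, 2390, 2480 and 2628 and WT-labelled females 2554, 2650, 2696, 2752 and 2814, and the HT-labelled library at 2628 lay above 1 WT-labelled library.

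Over all libraries, Orai2 had a mean of 2326 ± 206 normalized counts (SD, n = 29) with the HT label and 2723 ± 176 (SD, n = 30) with the WT label, a mean lower by 14.6%. Of the 29 HT-labelled libraries, 12 lay below every WT-labelled one, and 0 lay above the WT-labelled median of 2717. In 4 of 6 strata the genotype labels did not overlap. How many of all tested genes separate as fully was not counted, so such counts, here and for the genes below, are descriptions only. The log2 difference averaged over the strata was -0.23 ± 0.029 (SE). It was -0.20 ± 0.050 under vehicle, -0.25 ± 0.051 under fluoxetine and -0.23 ± 0.050 under lithium, and ranged from -0.30 in males on lithium to -0.17 in females on lithium. These values chose the gene and support nothing further.

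Orai1 (ENSMUSG00000049686, chr5:123015074-123030456, plus strand), the founding subunit of the channel, was the scarcest of the 3 channel genes, with 101 to 179 normalized counts. Its mean was 145 ± 18.3 (SD, n = 29) in HT-labelled and 136 ± 16.3 (SD, n = 30) in WT-labelled libraries, and the log2 difference averaged over strata was 0.09 ± 0.045 (SE). The sign differed between treatments, at 0.15 ± 0.077 under vehicle, -0.03 ± 0.079 under fluoxetine and 0.16 ± 0.077 under lithium. The genotype labels overlapped in all 6 strata.

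Orai3 (ENSMUSG00000043964, chr7:127769815-127775150, plus strand), a subunit found in mammals, had 287 to 464 normalized counts. Its mean was lower with the HT label in 6 of 6 strata, by small amounts within overlapping groups. The averaged log2 difference was -0.08 ± 0.043 (SE), from means of 355 (HT-labelled) and 374 (WT-labelled). The averaged differences of Orai1 and Orai3 thus had opposite signs, each within overlapping groups. Orai2 was chosen for its genotype difference, so its rank among the 3 channel genes was set by that choice.

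Of the store sensors, Stim1 (ENSMUSG00000030987, chr7:102267806-102437319, plus strand), the sensor that responds to strong depletion, was the steadiest of the 9 genes. It had 2391, 2614 and 2831 normalized counts (lowest, median, highest) in HT-labelled libraries and 2454, 2635 and 2866 in WT-labelled ones. The averaged log2 difference was -0.01 ± 0.015 (SE), the smallest of the set.

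Stim2 (ENSMUSG00000039156, chr5:53998499-54121057, plus strand), which responds to small falls in store calcium, ranged from 1100 to 1796 normalized counts. Its lowest, median and highest values were 1100, 1455 and 1782 with the HT label and 1254, 1527 and 1796 with the WT label. The averaged log2 difference was -0.07 ± 0.041 (SE), and the HT-labelled mean was the lower one in 6 of 6 strata, each with overlap.

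Saraf (ENSMUSG00000031532, chr8:34154575-34170821, plus strand) encodes a membrane protein of the endoplasmic reticulum that promotes the slow inactivation of calcium entry. Its lowest, median and highest normalized counts were 4810, 5739 and 6272 in HT-labelled libraries and 5406, 5934 and 6382 in WT-labelled ones. The HT-labelled mean was lower in 6 of 6 strata, and in males on lithium the labels did not overlap, with 5291 to 5808 against 5932 to 6241. The share of all tested genes that separate in this stratum was not counted. The averaged log2 difference was small, at -0.07 ± 0.021 (SE), with means of 5646 and 5921.

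Itpr1 (ENSMUSG00000030102, chr6:108213096-108551109, plus strand), the main IP3 receptor of neurons, had the highest normalized counts of the set, from 9564 to 18015. In males on vehicle the HT-labelled values were 9564, 11063, 14806, 15713 and 17174 and the WT-labelled values 11892, 14991, 16591, 16678 and 17256. The HT-labelled group was the more dispersed, and 2 of its libraries lay below every WT-labelled one. Over all strata 8 of 29 HT-labelled libraries lay below every WT-labelled library, while 0 of 30 WT-labelled libraries lay above every HT-labelled one. The averaged log2 difference was -0.15 ± 0.059 (SE), from means of 14106 and 15458.

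Itpr2 (ENSMUSG00000030287, chr6:146108299-146502223, minus strand), the IP3 receptor known from astrocytes, had 676 to 1339 normalized counts and an averaged log2 difference of 0.02 ± 0.048 (SE). Itpr3 (ENSMUSG00000042644, chr17:27057304-27122223, plus strand), best known from epithelial and secretory cells, had the lowest level per kb and the widest spread. Its lowest, median and highest values were 153, 222 and 544 with the HT label and 155, 191 and 583 with the WT label. The averaged log2 difference was 0.15 ± 0.11 (SE), positive in 4 of 6 strata.

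In the fit over all genes (limma, Benjamini-Hochberg adjustment, adjusted p under 0.05), 2 of the 9 genes passed in the averaged genotype contrast, Orai2 and Saraf, both lower in HT-labelled libraries, where 7.98% of all tested genes passed and 4.31% passed as lower. Under vehicle 0 of 9 passed (limma, 1 at an unadjusted p under 0.05, and 0 by limma without trend and robust shrinkage), with 0.202% of all tested genes called. Under fluoxetine 1 passed, with 0.849% of all genes called, and under lithium 1 passed, with 0.267% called, and both times it was Orai2. The median log2 difference of the 9 genes was -0.07, with 6 of 9 below 0, beside a median of 0.00161 over all tested genes. Because the set was assembled on this contrast, nothing is read from these counts.

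**Figure D2:**
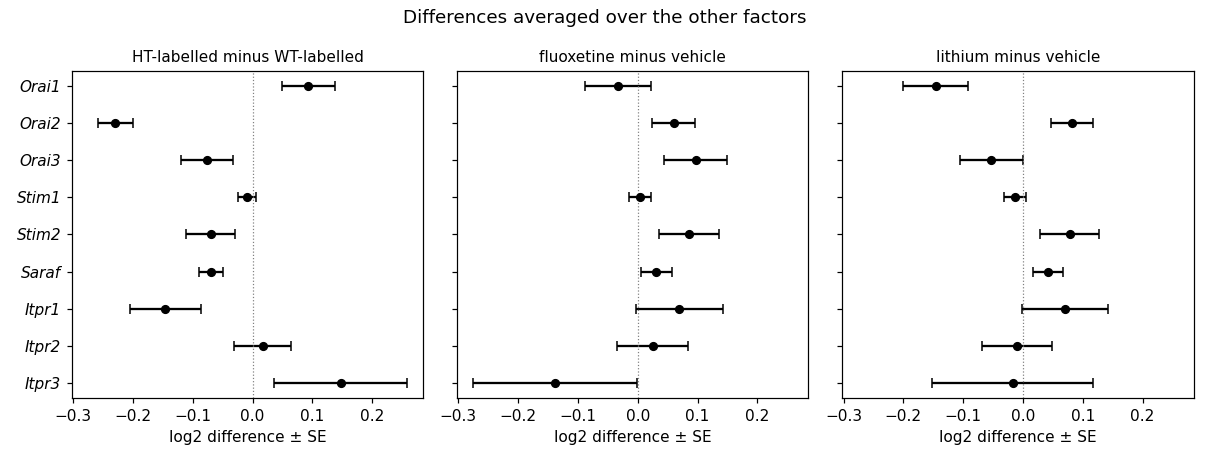
Log2 differences (x axes) of the 9 genes for HT-labelled minus WT-labelled, fluoxetine minus vehicle and lithium minus vehicle, each averaged over the other factors; points are estimates and bars SE from the fit of all 59 libraries. Orai2 was chosen for its genotype difference, which lies at -0.23, so its place among the points was set by that choice. The widest bars belong to Itpr3.

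Neither drug changed a gene of the set past the threshold. For lithium, averaged over genotype and sex, 0 of 9 genes passed (limma, adjusted p from 0.113 to 0.965, 2 at an unadjusted p under 0.05, and 0 by limma without trend and robust shrinkage), where 4.41% of all tested genes passed. The log2 differences ran from -0.15 to 0.08, with 4 of 9 above 0 and a median of -0.01, beside a median of -0.000385 over all genes.

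Of all tested genes 18.7% had an unadjusted p under 0.05 on lithium, a share close to that of the 9 genes. The 2 that did were Orai1, with a negative difference, and Orai2, with a positive one. Orai1 had 119, 144 and 179 normalized counts (lowest, median, highest) in the 20 vehicle libraries and 101, 133 and 175 in the 20 lithium libraries, groups that overlap over most of their range. The log2 difference was -0.15 ± 0.054 (SE, limma, adjusted p = 0.113), with a 95% interval from -0.26 to -0.04. It was of like size in both genotypes, at -0.14 ± 0.077 with the HT label and -0.15 ± 0.077 with the WT label. Orai2 had a mean of 2442 ± 264 (SD, n = 20) on vehicle and 2585 ± 269 (SD, n = 20) on lithium, a log2 difference of 0.08 ± 0.035 (SE, limma, adjusted p = 0.181). Neither passed the adjustment over all genes.

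The other genes showed smaller or less precise differences on lithium. Stim1 was the best bounded, at -0.01 ± 0.018 with a 95% interval from -0.05 to 0.02, so that a change of more than about 0.05 in either direction lies outside it. Stim2 was at 0.08 ± 0.049, Saraf at 0.04 ± 0.025, Orai3 at -0.05 ± 0.053 and Itpr1 at 0.07 ± 0.072. For Itpr3 the interval, from -0.29 to 0.25, was the widest. Meningeal fibroblast markers were lower on lithium in 6 of 6 genes, 2 of which passed (limma). Their mean log2 level was 9.21 on lithium, 9.29 on fluoxetine and 9.57 on vehicle, so the lower level was not particular to lithium. The vehicle mean includes the highest library, at 10.9 (replicate 5 of the WT-labelled males). Of the striatal markers 10 of 10 were above 0 on lithium, with 1 passing. The highest striatal level, 11.4, was that of a lithium library (replicate 2 of the WT-labelled males). The part of these markers in the values of the 9 genes was not tested beyond the covariate fits, in which the lithium difference of Orai1 lay between -0.15 and -0.10 and stayed uncalled.

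For fluoxetine, averaged over genotype and sex, 0 of 9 genes passed (limma, adjusted p from 0.467 to 0.951, 0 at an unadjusted p under 0.05, and 0 by limma without trend and robust shrinkage), where 0.0653% of all tested genes passed. Orai3 had the highest difference, 0.10 ± 0.053 on the log2 scale, from means of 360 ± 35.8 (SD, n = 20) on vehicle and 388 ± 51.1 (SD, n = 19) on fluoxetine. Itpr3 had the lowest, -0.14 ± 0.14, and Stim1 was again bounded closely, from -0.03 to 0.04. Both drugs were compared with the same vehicle libraries, so the 2 sets of values are not independent of each other.

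Within a genotype label, 0 of 9 genes passed for fluoxetine in HT-labelled libraries (0% of all genes called), for fluoxetine in WT-labelled libraries (0.19%), for lithium in HT-labelled libraries (0.238%) and for lithium in WT-labelled libraries (0.214%). In each of these 4 limma comparisons 0 of 9 had an unadjusted p under 0.05, and limma without trend and robust shrinkage also called 0. The interactions, which ask whether the genotype difference changes under a drug, called 0% of all genes for fluoxetine and 0% for lithium. Orai2 was not tested for them, having been chosen on genotype. Of the other 8 genes, none had an unadjusted p under 0.05 in limma, and limma without trend and robust shrinkage called 0. The interaction estimate with fluoxetine was -0.18 ± 0.11 for Orai1, 0.14 ± 0.12 for Itpr2 and -0.24 ± 0.27 for Itpr3, and every adjusted p was at least 0.864.

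Females and males did not differ past the threshold in any gene of the set. Averaged over genotype and treatment, 0 of 9 passed (limma, adjusted p from 0.788 to 0.978, 0 at an unadjusted p under 0.05, and 0 by limma without trend and robust shrinkage), where 0.154% of all tested genes passed. The log2 differences, female minus male, ran from -0.06 for Orai1 to 0.03 for Itpr3.

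The wider machinery was described with 8 lists of other calcium genes, of which 79 genes entered the tests. In the averaged genotype contrast 2 of 79 were higher and 4 were lower in HT-labelled libraries (limma, adjusted p under 0.05), a share close to the 7.98% of all tested genes that passed, and their median log2 difference was -0.00328. The called genes are named as single values, and the counts set none of the lists apart from other genes. How far tissue composition enters the values of these genes was not tested. Among enzymes that make IP3, 2 of 12 fell, where 4.31% of all tested genes passed as lower: Plcd3, a phospholipase C delta, by 0.21 ± 0.043 on the log2 scale (SE, limma, adjusted p = 0.00088), and Plcb1, the phospholipase C coupled to Gq receptors, by 0.07 ± 0.023 (adjusted p = 0.0378). Jph4, a neuronal junctophilin that ties the endoplasmic reticulum to the plasma membrane where STIM meets ORAI, fell by 0.10 ± 0.032 (adjusted p = 0.0392), as the sole gene of 14 STIM and ORAI regulators to pass. Slc24a3, a sodium, potassium and calcium exchanger, fell by 0.08 ± 0.026 (adjusted p = 0.0409), and 9 of the 10 genes of calcium extrusion had values below 0, where 50.8% of all tested genes had values above 0.

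The 2 genes that rose with the HT label act on release and on signalling downstream of entry. Bcl2, which binds IP3 receptors besides its role against cell death, was higher by 0.09 ± 0.027 (SE, log2 scale, limma, adjusted p = 0.0245). Rcan3, a regulator of the calcium-dependent phosphatase calcineurin, was higher by 0.17 ± 0.053 (adjusted p = 0.0377). No gene of the TRPC channel list (7 tested), the list of store refilling and storage (8 tested) or the mitochondrial uniporter list (6 tested) passed for genotype, with 4, 0 and 1 genes at an unadjusted p under 0.05, which 24.1% of all tested genes reached.

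On lithium, averaged over genotype and sex, 2 of 79 genes rose and 0 fell, where 4.41% of all tested genes passed. Both stood in the list of store refilling and storage. Calr, the calcium-binding chaperone that buffers luminal calcium, rose by 0.13 ± 0.029 on the log2 scale (SE, limma, adjusted p = 0.00472). Canx, its membrane-bound relative, rose by 0.09 ± 0.022 (adjusted p = 0.0108). The calcium pumps of the same list did not pass. On fluoxetine, by sex and in both interactions 0 of 79 genes passed in limma.

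Tissue markers moved with several of the 9 genes. A level was formed for each of 12 marker lists as the mean of log2(normalized count + 1) over its tested genes, and 11 of them entered the counts and covariates below. The list of excitatory cortical neurons (9 genes, among them Slc17a7 and Camk2a) had a level of 12.5 ± 0.263 (SD, n = 29) with the HT label, from 11.9 to 12.8, and of 12.6 ± 0.130 (SD, n = 30) with the WT label, from 12.3 to 12.8. All 9 of its genes had negative log2 differences for genotype, and 0 passed (limma, 4 at an unadjusted p under 0.05). In bulk tissue, fewer cells of a type and less RNA per cell cannot be told apart. The part that other dissected tissue, such as olfactory bulb, has in this level was not tested. Markers of the olfactory bulb varied most, from 4.09 to 10.6, without separate clusters and with means of 7.52 (HT-labelled) and 7.18 (WT-labelled). Striatal markers stood more than 5 robust SDs above their median in 8 libraries, 6 HT-labelled and 2 WT-labelled. Itpr1 is very abundant in cerebellar Purkinje cells, and the defining cerebellar markers were near 0, with mean normalized counts of 2.26 for Pcp2 and 0.601 for Gabra6. The cerebellar list, left out of the 11, kept only Calb1 and Car8, which cortical neurons also express.

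Library by library, after subtraction of group means, Itpr1 followed the excitatory neuron level with a Pearson r of 0.894 and a Spearman rho of 0.893 (n = 59 libraries, both permutation p = 1e-05, the smallest that 100000 permutations within groups can give, and both adjusted p = 6.9e-05 over 144 relations). Without the 2 libraries farthest from the median r was 0.885. Stim2 gave r = 0.889 and rho = 0.876, Saraf r = 0.817 and rho = 0.790, and Orai2 r = 0.727 and rho = 0.670, each with the same permutation p and adjusted p, and r was 0.872, 0.812 and 0.697 without the 2 farthest libraries. Orai3 was more loosely related (r = 0.562, rho = 0.569, permutation p = 5e-05 and adjusted p = 0.00023 for both, r = 0.585 without the 2 farthest). Itpr3 ran the opposite way (r = -0.733, rho = -0.776, permutation p = 1e-05 and adjusted p = 6.9e-05 for both, r = -0.717 without the 2 farthest).

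Stim1, Orai1 and Itpr2 stood outside this pattern. Their r with the excitatory neuron level was -0.108, -0.254 and -0.044, and for each of them 0 of 11 marker lists passed in both Pearson and Spearman correlation after adjustment. The corresponding counts were 7 of 11 for Stim2, Saraf and Itpr1, 6 for Itpr3, 3 for Orai2 and 2 for Orai3. The olfactory bulb level showed the mirror image, with r of -0.831 for Itpr1, -0.713 for Orai2, -0.665 for Stim2, -0.625 for Saraf and -0.558 for Orai3, and 0.695 for Itpr3. The level of Calb1 and Car8 was related to Orai2 (r = 0.684, rho = 0.652, n = 59, permutation p = 1e-05 and 2e-05, adjusted p = 6.9e-05 and 0.000113, r = 0.638 without the 2 farthest libraries). It was also related to Itpr1 (r = 0.670, rho = 0.639, permutation p = 2e-05 and adjusted p = 0.000113 for both, r = 0.628 without the 2 farthest).

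**Figure D3:**
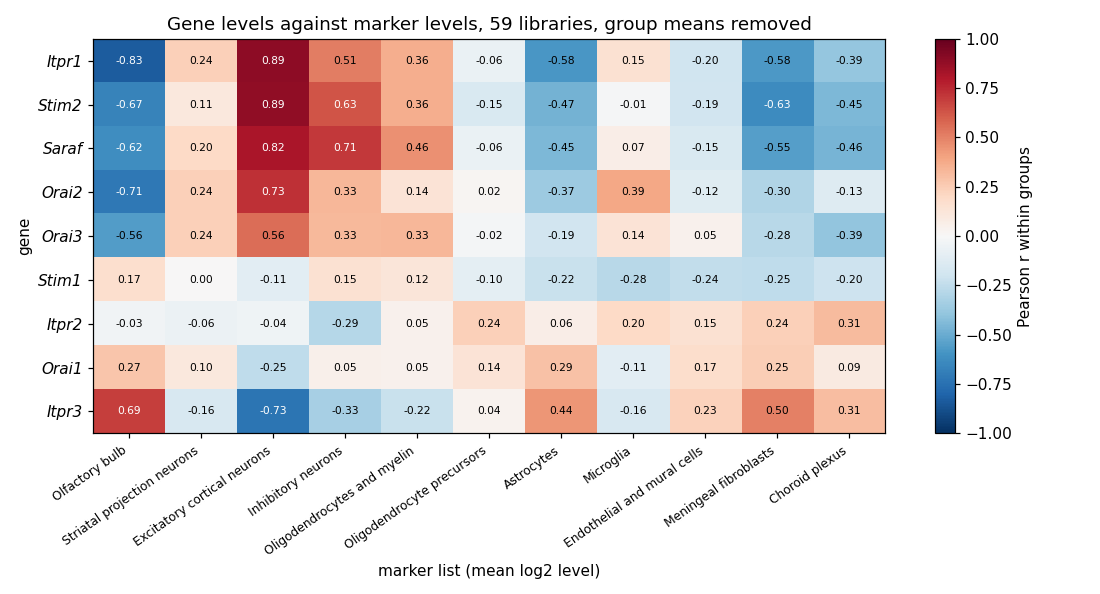
Pearson r (colour and printed value) of each gene with the mean level of each of 11 marker lists across 59 libraries, with group means removed; genes are the vertical and lists the horizontal categories. Itpr1, Stim2, Saraf, Orai2 and Orai3 are red for excitatory neurons and blue for olfactory bulb, Itpr3 is the reverse, and Stim1, Itpr2 and Orai1 are pale throughout.

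With the excitatory neuron level added to the fit as a covariate, an alternative chosen after the data were seen, the genotype difference of Orai2 was -0.19 on the log2 scale, against -0.23 without it. With the levels of all 11 lists it was -0.16, with the olfactory bulb and striatal levels -0.22, and without the 8 libraries rich in striatal markers -0.26. The difference of Itpr1 was -0.03 with the excitatory neuron level as a covariate, that of Saraf -0.04 (no longer called) and that of Stim2 0.01. Without a filter on low values Saraf was not called either. What moved the marker levels was not tested.

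**Figure D4:**
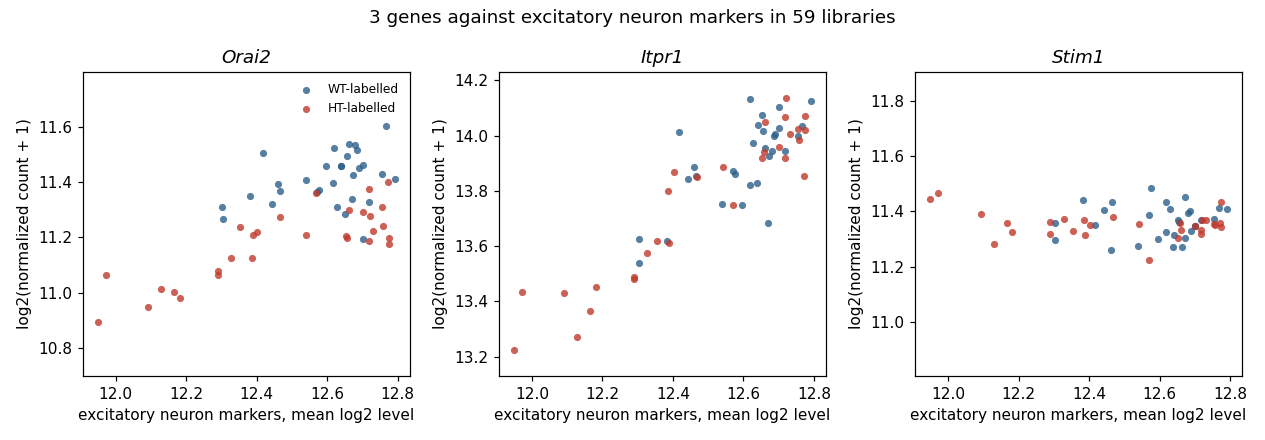
Log2(normalized count + 1) of Orai2, Itpr1 and Stim1 (y axes) against the mean log2 level of 9 excitatory cortical neuron markers (x axes), 1 point per library, coloured by genotype label. Itpr1 rises with the markers with both labels along 1 band. Orai2 rises too, with HT-labelled libraries mostly lower but overlapping WT-labelled ones at like marker levels, and Stim1 is flat.

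The genes also moved with one another between libraries of a group. Stim2 and Saraf were the closest pair (r = 0.856, rho = 0.842, n = 59, permutation p = 1e-05 and adjusted p = 6.9e-05 for both, r = 0.819 without the 2 farthest libraries). Itpr1 was close to Stim2 (r = 0.801, rho = 0.791, r = 0.782 without the 2 farthest) and to Saraf (r = 0.777, rho = 0.752, r = 0.742 without the 2 farthest), with the same permutation p and adjusted p. Itpr1 and Itpr3, which encode receptors for the same ligand, were opposed (r = -0.721, rho = -0.772, permutation p = 1e-05 and adjusted p = 6.9e-05 for both, r = -0.790 without the 2 farthest). These pairs share the libraries and the marker levels given above.

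Orai2 was nearest to Itpr1 among the 9 genes (r = 0.680, rho = 0.651, n = 59, permutation p = 2e-05 and 2.5e-05, adjusted p = 0.000113 and 0.000138, r = 0.629 without the 2 farthest libraries), which ranked 516th among all tested genes by likeness to Orai2. The genes most like it across the 59 libraries, by Pearson r after removal of group means, were Cbx6 (a Polycomb subunit, r = 0.811), Ids (the lysosomal iduronate sulfatase, r = 0.803), Pde2a (a cyclic nucleotide phosphodiesterase, r = 0.803), Camkv (a kinase-like protein associated with vesicles, r = 0.802) and Ensa (an inhibitor of protein phosphatase 2A, r = 0.801). They are given as descriptions, ranked among 16839 genes.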

How the data were processed

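Poly(A)-selected, stranded libraries of 59 prefrontal cortex samples were sequenced, per the labels' protocols. The signal values in the table are normalized counts that the authors deposited: estimated counts divided by a factor per library, and fractional values were kept, without a count model. The submitters' processing notes name DESeq2 1.19.11, Salmon 0.11.2, R 3.6.0 and the build GRCm38 without giving their order; the strand setting of the counting is not given in the sources used here. The most frequent low value of a library (0.854 to 1.31), read as 1 read, puts depth at an estimated 25.8 to 36.9 M reads. Correlations between libraries were 0.966 to 0.991.

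Samples were grouped by their labels alone. Each gene was tested in R 4.3.3 with limma 3.58.1 and statmod 1.5.0. The model took log2(value + 1), with 1 mean per group, trend and robust shrinkage, and Benjamini-Hochberg adjustment over 16839 genes with a mean of at least 10, called at 0.05. This scale understates changes of low genes. The fit was tested on simulated data, for averaged genotype only. It called 20% of the changes of 0.1 on the log2 scale, 60% of those of 0.2 and 82% of those of 0.4. Of those of 0.8 it called 100%, and 9 unchanged genes were called. Changes of 0.1 were thus mostly missed, and the drug contrasts were not simulated. Gene positions and exon lengths come from the GENCODE annotation of GRCm38, and 51285 identifiers had symbols. Annotated genes that overlap the 9 genes had means of at most 7.15 normalized counts. Promoter sequences of 7 of the 9 genes come from RefSeq. Marker relations used 100000 permutations within groups.

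The 9 genes, the gene lists and the contrasts were chosen with earlier results of these data known. Named beyond the 9 genes are Chd8, the genes of the calcium lists that passed (up to 4 per contrast and list) and the 5 genes most correlated with Orai2. Casq1 and Sln fell under the filter. Alternatives were TMM factors (30% of log ratios and 5% of levels trimmed), a pseudocount of 0.5, no filter, limma without trend and robust shrinkage, a block for the replicate number, fits on only the groups compared, marker levels as covariates, libraries rich in striatal markers left out, and each library left out in turn.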

Additional observations from a re-analysis of the deposited data

Results flagged for a closer look

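In all, 6 values stood apart from the other libraries of their group by Dixon's test at the 95% level, among 108 groups tested, and chance alone would mark about 1 in 20 groups. Stim1 was at 2766 normalized counts in replicate 3 of the HT-labelled males on fluoxetine, above 2579 to 2632 in the other 4. This library ranked 2nd of 59 for the excitatory neuron and the myelin levels and 55th for meningeal fibroblasts. Itpr1 was at 13790 in replicate 3 of the WT-labelled females on fluoxetine, below 15880 to 16456 in the others, and this library ranked 2nd of 59 for the astrocyte, microglial and endothelial marker levels. Itpr2 was at 1272 in replicate 2 of the HT-labelled females on lithium, above 873 to 988 in the others. That library ranked 9th of 59 for the excitatory neuron level and 50th for meningeal fibroblasts.

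Itpr3 gave the other 3. It was at 583.1 normalized counts in replicate 2 of the WT-labelled females on lithium, against 155 to 245 in the other libraries of the group. This library ranked 16th of 59 for olfactory bulb markers and only 53rd for meningeal fibroblast markers. Itpr3 was at 322.5 in replicate 4 of the WT-labelled females on vehicle, against 180 to 211, in a library ranked 14th and 11th for these lists. Itpr3 was at 310.9 in replicate 5 of the WT-labelled males on vehicle, against 173 to 188. That library ranked 4th of 59 for olfactory bulb markers and had the highest meningeal fibroblast level, 10.9. The part of these marker levels in the values was not tested.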

How the results depend on the processing

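Over the 9 alternatives and the fits without single libraries, Orai2 stayed lower in HT-labelled libraries. Its averaged log2 differences ran from -0.26 to -0.16 over the alternatives and from -0.24 to -0.22 with 1 library left out. These fits reuse the values that chose the gene, so they describe the dependence on processing and support nothing further. The number of the 9 genes called for averaged genotype was 1 in place of 2 without a filter on low values, and 1 with the excitatory neuron level as a covariate, the gene lost being Saraf. Under vehicle it was 1 in place of 0 with the olfactory bulb and striatal levels as covariates and 1 with the excitatory neuron level, and 0 to 1 with single libraries left out. It was 1 without replicate 3 of the HT-labelled males on lithium, replicate 2 or 3 of the HT-labelled females on vehicle, replicate 1 of the HT-labelled or of the WT-labelled males on vehicle, or replicate 4 of the WT-labelled males on fluoxetine. Under lithium it was 0 to 1 with single libraries left out, and 0 in place of 1 without replicate 4 of the HT-labelled females or replicate 3 of the HT-labelled males on lithium. The shares of all genes called in these alternative fits are not given for vehicle and for lithium, and nothing is read from these counts. The cause of the shifts was not tested. Counts for drugs, interactions and sex were 0 in every alternative run.

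No value that changed sign was called. For genotype they were Stim2 at 0.0071 and Itpr3 at -0.028 with the excitatory neuron level, Itpr3 at -0.0142 with 11 marker levels, and Itpr2, which ran from -6e-04 to 0.0405 with single libraries left out. For fluoxetine, 11 marker levels gave Stim1 -0.0023, Stim2 -0.0032, Saraf -0.0046, Itpr1 -0.0085 and Itpr3 0.0141, the excitatory neuron level gave Itpr1 -0.0187, and with single libraries left out Itpr2 ran from -0.0111 to 0.0505 and Stim1 from -0.0025 to 0.0088. For lithium, 11 marker levels gave Stim2 -6e-04, Itpr1 -0.0414, Itpr2 0.1552 and Itpr3 0.1328, olfactory bulb and striatal levels gave Itpr3 0.0335, the excitatory neuron level gave Itpr3 0.0589, and with single libraries left out Itpr2 ran from -0.0338 to 0.0088 and Itpr3 from -0.0941 to 0.0287.

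The labels do not say what the replicate numbers mark, so they were not taken as pairing. Not every same-numbered pair of libraries correlated above 0.1, a rule that noise in single pairs can break. It therefore decides nothing about pairing, and what the numbers mark was not tested. Deviations of same-numbered libraries of different groups had a mean r of 0.0789, with 123 of 319 pairs over 0.1, against -0.0196 and 307 of 1276 for different numbers, and 19 of 59 libraries were closest to their own number. In the 6 HT-labelled groups, the olfactory bulb level was 4.13 to 5.32 in replicate 1, the lowest of each group, and 8.89 to 10.2 in replicate 4. The WT-labelled groups did not share this order. With the number as a block, 3 of the 9 genes were called for averaged genotype, Itpr1 (-0.15) joining Orai2 (-0.23) and Saraf. Itpr1 also passed with the olfactory bulb and striatal levels as covariates (-0.12), and not in the other 7 alternatives. Over all genes, calls for averaged genotype were 1344, against 668 with 11 marker levels, 877 without a filter, 1755 with the olfactory bulb and striatal levels and 1828 with the block. Calls for lithium were 742, against 281 with 11 marker levels, 483 without a filter, 1315 with the olfactory bulb and striatal levels and 1520 with the excitatory neuron level. For fluoxetine they were 11, against 1 to 41. With TMM factors the median over all genes shifted by no more than 0.00703. The fit on the groups of a contrast alone is the same fit for averaged genotype and for sex. The covariates for excitatory neurons and for 11 lists were chosen after seeing the data. Orai1 and Itpr3 have the fewest counts of the 9 genes, and how far depth limits them was not tested.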
